A study of Mus musculus with 200 samples.

Results

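The Kcnq1ot1-Cdkn1c imprinted domain of distal mouse chromosome 7 was examined through 6 genes, *Kcnq1ot1*, *Kcnq1*, *Cdkn1c*, *Phlda2*, *Slc22a18* and *Ascl2*, taken by symbol from the 22033 RefSeq genes of the expression and allele tables. Another 13 genes around them served as neighbours for comparison. Expression had been measured by 3SEQ, in which sequencing libraries are made from the 3′ ends of polyadenylated transcripts, on single whole mouse embryos at embryonic day 11.5. Of these, 16 were F1 embryos of the strains C57BL/6J (B6) and CAST/EiJ (Cast, Castaneus in the labels), 8 from B6 mothers and Cast fathers (B6xCast, 2 litters) and 8 from Cast mothers and B6 fathers (CastxB6, 2 litters). The other 154 were N2 embryos from backcrosses of F1 animals to B6, 89 with a B6 mother and an F1 father (B6xF1, 17 litters) and 65 with an F1 mother and a B6 father (F1xB6, 12 litters). The labels name no engineered allele and no treatment, all the F1 parents came from B6 females mated to Cast males, and every library was 1 embryo. An N2 embryo is either heterozygous at a gene, with its Cast copy inherited from the F1 parent alone, or homozygous for B6.

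Imprinted genes are transcribed mainly from the copy inherited from 1 parent. In this domain a differentially methylated region inside *Kcnq1* holds the promoter of *Kcnq1ot1*, a long non-coding RNA that runs antisense to *Kcnq1*. On the paternal chromosome that promoter is unmethylated and active, and the RNA silences genes on both sides of it in cis, by recruiting histone modifying complexes. On the maternal chromosome it is methylated and silent. *Cdkn1c* encodes p57Kip2, an inhibitor of cyclin dependent kinases that restrains growth, *Phlda2* a pleckstrin homology domain protein that limits placental growth, *Slc22a18* a membrane transporter of the organic cation transporter family, *Kcnq1* a voltage gated potassium channel, and *Ascl2* a basic helix-loop-helix transcription factor needed in the trophoblast. Silencing reaches further in the placenta than in the embryo proper, and some genes of the domain are known as imprinted mainly there.

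In mm9, *Ascl2* lies at chr7:150152727-150155169, *Kcnq1* at chr7:150293159-150612955, *Cdkn1c* at chr7:150644255-150646955, *Slc22a18* at chr7:150659626-150685239 and *Phlda2* at chr7:150687450-150688446. The span from *Ascl2* to *Phlda2* is 535.7 kb. *Kcnq1* and *Slc22a18* are on the plus strand, *Ascl2*, *Cdkn1c* and *Phlda2* on the minus strand. *Kcnq1ot1* was placed by its promoter sequence, which matched mm9 at 1 position and put the start at 150482452 on the minus strand, inside *Kcnq1* and 189.3 kb from its start. The window of that promoter overlapped 0 of the 20 annotated *Kcnq1* exons, so it is intronic, and it lay 164.5 kb from *Cdkn1c*.

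The start regions of a paternally expressed, a maternally expressed and a partly biased member are printed here because the allele results turn on these genes. Each runs 5′ to 3′ along the gene, from 250 bases before to 50 bases after the RefSeq start (GRCm38.p6), and capitals mark the letters CCAAT or, for the other strand, ATTGG. The *Kcnq1ot1* window is at chr7:150482403-150482702 of mm9, *Slc22a18* at chr7:150659444-150659743 and *Ascl2* at chr7:150155120-150155419.
Kcnq1ot1: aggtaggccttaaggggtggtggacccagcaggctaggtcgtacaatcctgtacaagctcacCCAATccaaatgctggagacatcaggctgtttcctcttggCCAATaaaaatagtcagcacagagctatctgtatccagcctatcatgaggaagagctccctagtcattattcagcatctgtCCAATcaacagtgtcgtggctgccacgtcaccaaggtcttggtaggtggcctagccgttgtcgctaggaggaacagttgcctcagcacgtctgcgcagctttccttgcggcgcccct
Slc22a18: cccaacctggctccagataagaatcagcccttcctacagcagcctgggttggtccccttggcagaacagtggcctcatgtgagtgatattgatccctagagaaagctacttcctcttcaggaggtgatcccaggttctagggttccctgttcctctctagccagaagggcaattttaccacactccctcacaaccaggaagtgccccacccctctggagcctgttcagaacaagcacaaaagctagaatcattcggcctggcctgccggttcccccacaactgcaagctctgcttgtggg
Ascl2: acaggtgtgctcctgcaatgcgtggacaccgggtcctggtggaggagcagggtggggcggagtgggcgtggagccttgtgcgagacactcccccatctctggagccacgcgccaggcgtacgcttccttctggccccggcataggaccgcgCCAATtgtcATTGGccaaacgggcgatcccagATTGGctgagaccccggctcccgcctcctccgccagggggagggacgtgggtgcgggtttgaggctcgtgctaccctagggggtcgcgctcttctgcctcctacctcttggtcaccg

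The *Kcnq1ot1* window held 3 CCAAT boxes, all on the strand of the RNA. Of 32851 RefSeq promoter windows of the same length, 37.4% held at least 1 such box on either strand and 3.37% held 3 or more. *Ascl2* also held 3, 1 as CCAAT and 2 as ATTGG, *Phlda2* held 1 and *Slc22a18* 0. CpG pairs numbered 9 in *Kcnq1ot1*, 23 in *Ascl2*, 26 in *Phlda2* and 2 in *Slc22a18*, against a median of 7 over all windows. These counts describe letters in a fixed window. *Kcnq1* and *Cdkn1c* were not shown.

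An F1 library held 15703888 to 38234229 gene reads and an N2 library 245220 to 5370322, and levels are given as reads per 1e+06 of these (RPM). Allele votes are the reads that carried a base telling B6 from Cast, and the B6 allele fraction (BAF) is the B6 share of a gene's votes. The F1 litters differed in stage, with 41 to 43 somites in CastxB6 litter 1, 46 to 48 in CastxB6 litter 2, 48 to 50 in B6xCast litter 5 and 58 to 63 in B6xCast litter 3. Each F1 embryo was sequenced in 2 runs, of which CastxB6 litter 2 shared 1 with the other 3 litters and had the other to itself, and that second run cannot be told apart from this litter. Each F1 column was taken to hold both runs of its embryo, from its name, which the labels do not say outright. Only 1 of 14 N2 lanes held embryos of both mothers, so that mother and lane can hardly be told apart. At 5 flanking genes the Cast share of votes was 39.5% to 64.3% in embryos labelled heterozygous at the domain and at most 1.43% in those labelled homozygous. The authors called these genotypes from the B6 share of reads at genes, so the shares are no independent check of the labels. All 8 markers of embryonic tissues, among them *Tubb3* of neurons and *Myh6* of the heart, were above 1 RPM on average in both generations. The 9 measured trophoblast markers summed to 0.029 to 0.869 RPM in F1 libraries and to at most 4.48 RPM in N2 libraries, with 5 of the 9 at 0 in every F1 library. Decidual markers reached at most 0.034 RPM in F1 and 20.5 RPM in N2 embryos.

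The first question was from which parental copy each member was transcribed. A gene was called imprinted when the pooled votes of both crosses, at least 20 in each, departed from equal expression in opposite strain directions at a Bonferroni-adjusted binomial p under 0.01. By this rule 4 of the 5 testable members were called in F1 embryos, against 162 of 11911 genes tested (1.36%), or 47 of 11606 autosomal genes (0.405%). *Phlda2* could not be tested, since it drew 1 vote in B6xCast and 3 in CastxB6. Of those called, 1 was read from the paternal copy and 3 from the maternal copy.

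*Kcnq1ot1* was read from the paternal copy in every F1 embryo. In B6xCast embryos its BAF per embryo was lowest at 0, had a median of 0 and was highest at 0.0066, and the pooled value was 0.0031 over 640 votes. In CastxB6 embryos each of the 8 had a BAF of 1, over 232 votes. The crosses did not overlap (exact permutation test over embryos, two-sided p = 0.000155, the smallest that 8 against 8 embryos allow). The 2 B6 votes in B6xCast put the maternal share at 0.313% (95% exact binomial interval 0.0379% to 1.12%), and 0 maternal votes in CastxB6 allow up to 1.58% by the same interval. Intervals on votes cover counting error alone.

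*Cdkn1c* was the mirror image and the most deeply covered member. Its pooled BAF was 0.989 over 26868 votes in B6xCast and 0.0028 over 32902 votes in CastxB6. Single embryos ranged from 0.979 to 0.997 with a median of 0.991 in B6xCast, and from 0 to 0.0050 with a median of 0.0032 in CastxB6. *Slc22a18* was maternal with a larger paternal remainder, at a BAF of 0.939 in B6xCast (393 votes, 0.886 to 1.00 per embryo) and 0.0947 in CastxB6 (190 votes, 0 to 0.231 per embryo). *Kcnq1* rested on few votes, 52 and 83, and its BAF was 0.846 in B6xCast and 0.108 in CastxB6 (Bonferroni-adjusted p = 0.0048). For each of these 3 genes the crosses did not overlap in the embryos with votes, and the exact permutation test again gave its smallest p of 0.000155.

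*Ascl2* had a BAF of 0.625 in B6xCast (152 votes) and 0.297 in CastxB6 (148 votes), that is 62.5% and 70.3% of its votes from the mother. The adjusted binomial p given for a gene is the larger of the values of its 2 crosses. For *Ascl2* it was 1, so this gene was not called. Per embryo the B6xCast values were 0.30 at the lowest, 0.64 at the median and 0.80 at the highest, and those of CastxB6 were 0.19, 0.31 and 0.50. The ranges overlapped, while the exact permutation test over embryos gave two-sided p = 0.00326. By litter the maternal share was 74% in B6xCast litter 3, 50.7% in B6xCast litter 5, 74.2% in CastxB6 litter 1 and 62.7% in CastxB6 litter 2, so both crosses held 1 litter near 74% and 1 below it.

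**Figure D1:**
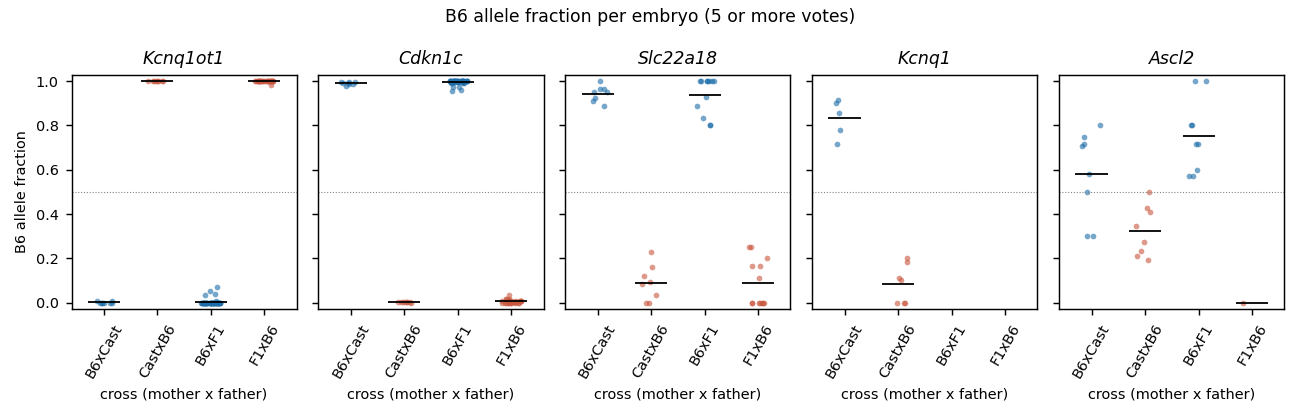
BAF of 5 members in single embryos with at least 5 votes (vertical axis, 0 to 1) by cross, mother first. Each point is an embryo, the bar is the mean over embryos and the dotted line is equal expression. *Kcnq1ot1* sits near 0 with a B6 mother and near 1 with a Cast or F1 mother, and *Cdkn1c* and *Slc22a18* the other way round. In F1 embryos *Kcnq1* also sits high with a B6 mother and low with a Cast mother and *Ascl2* lies between, while 0 N2 embryos had 5 votes for *Kcnq1* and 1 embryo of an F1 mother had them for *Ascl2*.

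The N2 embryos gave the same measure in animals that the F1 test had not used. Among embryos heterozygous at the gene, 33 of 9227 testable genes were called imprinted by the same rule (0.358%, all of them autosomal), and 3 of the 4 testable members were among them. These 3, *Kcnq1ot1*, *Cdkn1c* and *Slc22a18*, belonged to the 31 genes called in both generations. *Kcnq1ot1* had a BAF of 0.0040 with a B6 mother (1075 votes) and 0.9994 with an F1 mother. Its highest embryo with a B6 mother stood at 0.0715 and its lowest with an F1 mother at 0.981. *Cdkn1c* had a BAF of 0.9966 (7377 votes, 0.954 to 1.00 over 48 embryos) with a B6 mother and 0.0050 (7183 votes, 0 to 0.0357 over 29 embryos) with an F1 mother. *Slc22a18* had 0.938 over 145 votes and 0.0876 over 137 votes. For each of the 3, a permutation test of the mother over litters gave p = 1e-05, the smallest that 100000 resamples can give.

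*Ascl2* again leaned towards the mother in N2 embryos without being called. Its BAF was 0.670 with a B6 mother (103 votes) and 0.268 with an F1 mother (41 votes), which is 67% and 73.2% maternal. The adjusted binomial p was 1 and the permutation p over litters was 0.00094. *Kcnq1* fell short of the 20 votes required, with 16 of 18 votes from B6 under a B6 mother (BAF 0.889) and 2 of 5 under an F1 mother (BAF 0.400, permutation p = 0.0128 over litters). *Phlda2* drew no vote in a heterozygous N2 embryo, so the parental origin of its reads was not seen at all.

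The remainder from the silenced copy differed in size between members. For *Cdkn1c* it was 1.08% (95% exact interval 0.963% to 1.21%) when the father was Cast and 0.283% (0.228% to 0.346%) when the father was B6 in F1 embryos. By embryo these shares ran from 0.286% to 2.08% and from 0 to 0.498%, and so overlapped, and by litter they were 1.35% and 0.704% against 0.304% and 0.256%. In N2 embryos the order was turned, at 0.339% with the Cast copy paternal and 0.501% with the B6 copy paternal. Homozygous N2 embryos, which have no Cast copy, still gave 0.137% Cast votes for *Cdkn1c* (0.0782% to 0.222%). By mother it was 0.231% (0.111% to 0.425%) with B6 mothers and 0.0814% with F1 mothers. This is a floor below which a share of Cast votes cannot be read in N2 libraries, and the 0.339% with B6 mothers lay within the interval of their floor. For F1 libraries, which hold no homozygous embryos, no floor was measured. No such floor was measured for B6 votes, which make up the remainder when the father is B6. The paternal remainder of *Slc22a18* was 6.11% and 9.47% in F1 and 6.21% and 8.76% in N2 embryos, while homozygous embryos gave 0 of 333 Cast votes, an upper limit of 1.10%. For *Kcnq1ot1* the Cast share in homozygous embryos was 4 of 1164 votes, or 0.343%. Its maternal share of 0.313% in B6xCast consists of B6 votes, for which no floor was measured. The *Kcnq1* remainder was 15.4% and 10.8% in F1 embryos. Since *Kcnq1ot1* runs inside *Kcnq1* on the other strand and the strand setting of the counting was not given in the sources used here, reads of the pair may have been mixed, which was not tested.

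The neighbours with enough votes were read from both copies. *Tnfrsf26*, *Tnfrsf22* and *Tnfrsf23* had too few votes in the F1 crosses for their origin to be seen. Of the 13 listed, 10 had 20 votes in both F1 crosses and 0 were called in either generation, where 9 could be tested in N2 embryos. *Cd81*, a tetraspanin gene between *Ascl2* and *Kcnq1*, had a BAF of 0.544 in B6xCast and 0.518 in CastxB6 (25655 and 27682 votes). *Tssc4*, between *Cd81* and *Kcnq1*, had 0.486 and 0.471, and *Nap1l4*, a histone chaperone gene beyond *Phlda2*, had 0.485 and 0.460. *Cars*, *Osbpl5*, *Nadsyn1*, *Dhcr7*, *Th* and *Tspan32* lay between 0.397 and 0.613 in the crosses. *Trpm5*, a cation channel gene of taste cells that overlaps *Tssc4* on the other strand, departed furthest, at 0.405 and 0.212 in F1 and 0.443 and 0.352 in N2 embryos. Its difference between crosses of 0.193 was within the range of the uncalled genes, whose absolute difference had a median of 0.0312. Against that scale the absolute difference between crosses was 0.997 for *Kcnq1ot1*, 0.986 for *Cdkn1c*, 0.844 for *Slc22a18*, 0.738 for *Kcnq1* and 0.328 for *Ascl2*. Of the 11911 genes tested, which include genes outside the autosomes, 366 had a larger difference than *Ascl2* and 41 a larger one than *Kcnq1*. In N2 embryos, where all 9227 genes tested were autosomal, 31 had a larger difference than *Ascl2*. On the centromeric side the separately controlled *H19* and *Igf2* pair had BAFs of 0.981 and 0.0012 for the maternal RNA *H19* and 0.010 and 0.9975 for the paternal growth factor gene *Igf2*.

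**Figure D2:**
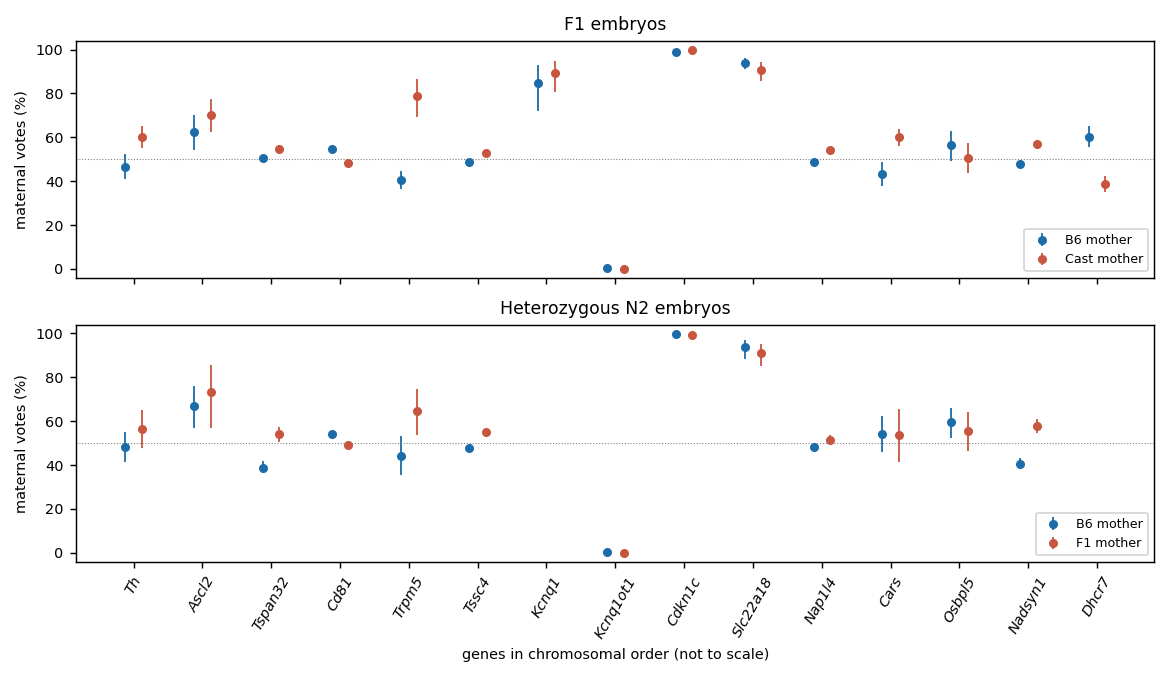
Maternal share of allele votes in percent (vertical axis) for members and neighbours in chromosomal order with at least 20 votes per group (not to scale), in F1 embryos (top) and heterozygous N2 embryos (bottom). Points are pooled votes by mother and bars are 95% exact binomial intervals. *Cdkn1c* and *Slc22a18*, and *Kcnq1* in F1 embryos, stand high with both mothers and *Kcnq1ot1* stands near 0. The neighbours lie between 38.7% and 60.3%, except *Trpm5*, which reaches 78.8% in CastxB6 and 64.8% in N2 embryos of F1 mothers.

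Whether allelic balance moved with stage was asked within each cross or mother by correlating BAF per embryo with somite number. A correlation could be computed for *Cdkn1c* in every group, for *Kcnq1ot1* in B6xCast and B6xF1, and for *Slc22a18* in B6xCast. *Kcnq1*, *Phlda2* and *Ascl2* could not be tested in any group. None of the correlations computed passed at q under 0.1. Over all genes 44 of 4150 passed in B6xF1 (1.06%) and 1 of 3857 in F1xB6 (0.0259%). In F1 embryos 0 of 6897 passed in B6xCast (0%) and 0 of 6366 in CastxB6 (0%). Somite numbers were known for only 7 and 6 of these embryos. So few embryos allow few distinct permutation p-values, so the F1 counts of 0 decide nothing. The F1 embryos of a cross fell into 2 litters of separate stages, so no correlation is given for them. For *Cdkn1c*, over 40 B6xF1 embryos Spearman's rho was 0.034 (permutation p = 0.831) and Pearson's r -0.124 (permutation p = 0.443), and over 28 F1xB6 embryos rho was -0.159 (0.418) and r -0.017 (0.929). For *Kcnq1ot1*, over 20 B6xF1 embryos rho was 0.070 (permutation p = 0.762) and r 0.165 (0.50), while all 11 F1xB6 embryos with enough votes stood at a BAF of 1. Without the 2 embryos farthest from the median stage r was 0.024 and -0.026 for *Cdkn1c* and -0.177 for *Kcnq1ot1*.

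Expression was then compared between F1 crosses at the nearest stages, B6xCast litter 5 against CastxB6 litter 2, with edgeR's quasi-likelihood test over all genes. In these whole-embryo libraries, fewer cells expressing a gene and less RNA per cell cannot be told apart. Each cross was a single litter here, so cross, litter and sequencing run cannot be told apart either. The test took littermates as units. Somite numbers also differed, at 48 to 50 in B6xCast litter 5 and 46 to 48 in CastxB6 litter 2. Of the 6 members 1 was called at q under 0.05, against 1856 of 14170 genes (13.1%), so the members were called at about the rate of all genes. The called member was *Slc22a18*. Its levels were 4.97, 4.21, 5.41, 4.76 and 4.71 RPM in B6xCast litter 5 and 2.96, 3.18, 2.91 and 3.495 RPM in CastxB6 litter 2. All 5 B6xCast embryos lay above all 4 CastxB6 embryos, and the log2 difference was 0.67 ± 0.13 (SE, edgeR adjusted p = 0.0049), a 1.59-fold higher level (95% interval 1.32 to 1.92).

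*Kcnq1ot1* had 8.76, 8.83, 7.58, 6.68 and 6.63 RPM in B6xCast litter 5 and 3.97, 2.58, 6.10 and 5.48 RPM in CastxB6 litter 2. These groups did not overlap either, yet the log2 difference of 0.80 ± 0.26 missed the threshold (edgeR adjusted p = 0.054). It passed in 3 alternatives, with DESeq2 (adjusted p = 0.023), without CastxB6 replicate 7 (0.042) and with all 8 embryos of each cross (1.15, 0.0017), in which crosses also differ in stage, and over all alternatives its adjusted p ran from 0.0017 to 0.125. *Cdkn1c* had 1066, 1409, 806, 722 and 754 RPM against 769, 2326, 713 and 589 RPM, a log2 difference of -0.11 ± 0.42 that turned to 0.48 without the embryo at 2326 RPM. Over all F1 embryos *Kcnq1* ran from 0.828 to 2.17, *Phlda2* from 3.68 to 10.1 and *Ascl2* from 0.991 to 1.95 RPM. *Kcnq1* (0.09 ± 0.25), *Phlda2* (0.14 ± 0.20) and *Ascl2* (-0.05 ± 0.20) gave intervals that included 0, the widest from -0.45 to 0.62.

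**Figure D3:**
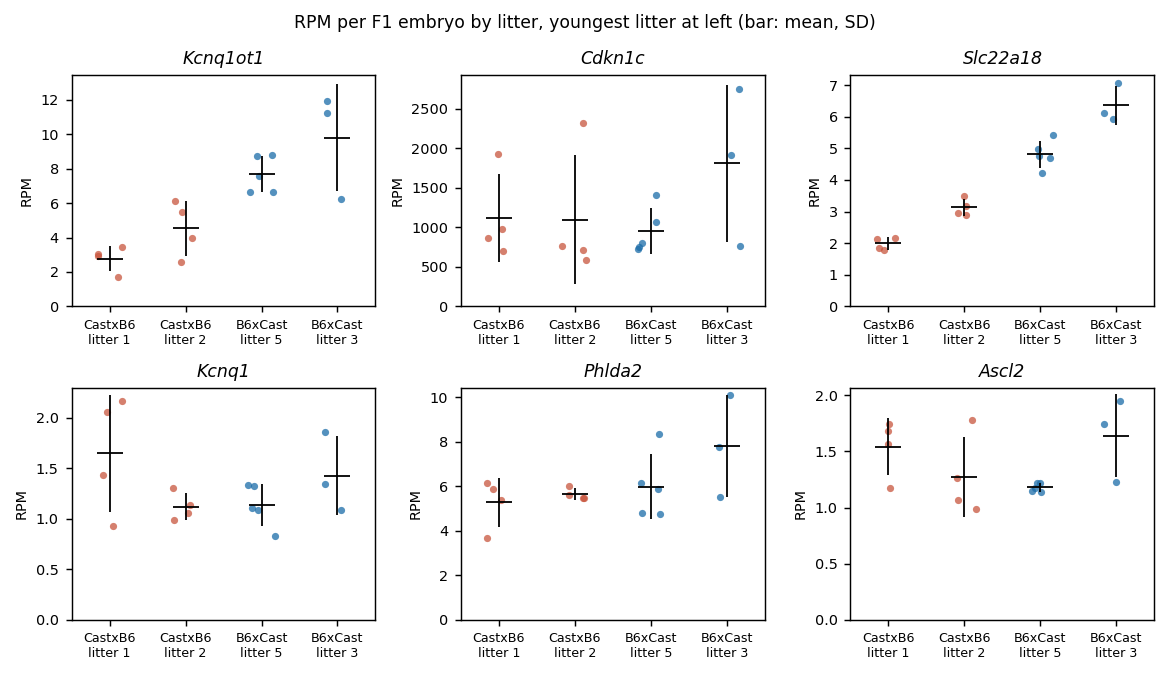
RPM of the 6 members per F1 embryo (vertical axis, from 0) by litter, youngest litter at left. Points are embryos, the bar is the litter mean and the whisker 1 SD. Mean *Slc22a18* was 1.99, 3.14, 4.81 and 6.37 RPM from left to right and mean *Kcnq1ot1* 2.78, 4.53, 7.69 and 9.80 RPM, with no overlap between litters for *Slc22a18*. For each of the other 5 members at least 1 pair of litters overlapped.

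Older and younger litters were compared within each cross. Each stage was a single litter, with its embryos as units, so stage and litter cannot be told apart. In CastxB6, litter 2 against litter 1, 1 of 6 members was called against 4394 of 14170 genes (31%). *Slc22a18* was 1.80, 2.17, 2.15 and 1.86 RPM in litter 1, all below the 4 embryos of litter 2, and rose by a log2 difference of 0.53 ± 0.13 (edgeR adjusted p = 0.0080). *Kcnq1* was at 0.927, 1.43, 2.06 and 2.17 RPM in litter 1 and 1.13, 1.06, 0.983 and 1.30 RPM in litter 2, with a log2 difference of -0.67 ± 0.25 (adjusted p = 0.055). *Kcnq1ot1* stood at 0.60 ± 0.28 (adjusted p = 0.109) and *Ascl2* at -0.40 ± 0.20 (adjusted p = 0.141). Litter 2 shared 1 of its 2 sequencing runs with litter 1, and the run it did not share cannot be told apart from its stage. Without CastxB6 replicate 6, the embryo with the most *Cdkn1c*, 3 members were called, the others being *Kcnq1ot1* (0.83) and *Ascl2* (-0.57), and without CastxB6 replicate 1 the 2 called were *Slc22a18* and *Kcnq1* (-0.85).

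In B6xCast, litter 3 against litter 5, 0 of 6 members were called against 2229 of 14170 genes (15.7%). The 2 litters shared their sequencing runs, while stage and litter cannot be told apart. *Cdkn1c* was 762, 1919 and 2750 RPM in litter 3, a range that contained every embryo of litter 5 except the 722 and 754 RPM ones, with a log2 difference of 0.76 ± 0.45 (edgeR adjusted p = 0.26). *Slc22a18* was 6.11, 5.92 and 7.07 RPM, above all of litter 5, with 0.24 ± 0.13 (adjusted p = 0.23, and 0.042 with total counts as library sizes). *Phlda2* was 10.1, 7.77 and 5.52 RPM in litter 3 against 4.76 to 8.34 RPM in litter 5 (0.23 ± 0.21).

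The mother's genotype was compared in N2 embryos on counts summed per litter, 12 litters of F1 mothers against 17 of B6 mothers. In edgeR's test 0 of 14168 genes passed (0%), with 1563 at an unadjusted p under 0.05 and 5 called by DESeq2, and so 0 of 6 members. *Cdkn1c* had the widest separation among members. Its litter means were 325 RPM at the lowest, 605 at the median and 1787 at the highest with B6 mothers, and 404, 1457 and 2653 RPM with F1 mothers. The groups overlapped over most of their range, and the log2 difference was 0.81 ± 0.30 (edgeR unadjusted p = 0.011, adjusted p = 0.315). With embryos as units, which share mothers, the adjusted p was 4.7e-08, and over all alternatives it ran from that value to 0.493. Lane means of *Cdkn1c* ran from 366 to 2723 RPM and lane held 72.9% of the variance of its log2(RPM + 1), and its part in the difference between mothers was not tested. In the lane with both mothers, the B6xF1 embryo was at 1236 RPM and the 8 F1xB6 embryos between 1093 and 2321 RPM.

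*Kcnq1ot1* litter means were 14.0 RPM at the lowest, 26.6 at the median and 49.7 at the highest with B6 mothers and 4.93, 25.7 and 36.6 RPM with F1 mothers, a log2 difference of -0.29 ± 0.23 (95% interval -0.76 to 0.18). Lanes held 58.0% of its variance, with lane means from 5.32 to 42.3 RPM. *Slc22a18* litter means were 0.798, 3.01 and 4.67 RPM with B6 mothers and 2.07, 3.74 and 5.73 RPM with F1 mothers, and the log2 difference was 0.52 ± 0.29 (edgeR adjusted p = 0.53), and *Phlda2*, *Kcnq1* and *Ascl2* lay between -0.20 and -0.01. At N2 depth the last of these genes were near the counting limit, with a median of 1 *Kcnq1* read and 2 *Ascl2* reads per embryo and no read of *Kcnq1* in 43 and of *Ascl2* in 34 of 154 embryos.

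Stage was also read from the somite numbers of 147 N2 embryos, from 42 to 57, with lane as a covariate. Of the 6 members 1 was called against 1242 of 14195 genes (8.75%). *Slc22a18* rose by a log2 change of 0.12 ± 0.028 per somite (edgeR adjusted p = 0.0011), or 1.19 ± 0.28 over 10 somites. Its lowest embryo had 0 RPM, the median embryo 2.92 and the highest 11.7 RPM, and embryos at any 1 somite number were widely spread. The slope was 0.13 in B6 mothers alone (adjusted p = 0.012), 0.094 in F1 mothers alone (0.37) and 0.095 with litter in place of lane (0.44). The adjusted p over all alternatives ran from 0.00015 to 0.44. *Kcnq1ot1* (0.064 ± 0.025, adjusted p = 0.097) and *Phlda2* (0.071 ± 0.030, adjusted p = 0.133) missed the threshold with edgeR and passed with DESeq2 (0.041 and 0.049). *Cdkn1c* had a slope of 0.022 ± 0.021, and *Kcnq1* and *Ascl2* slopes of -0.019 ± 0.046 and -0.003 ± 0.047.

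**Figure D4:**
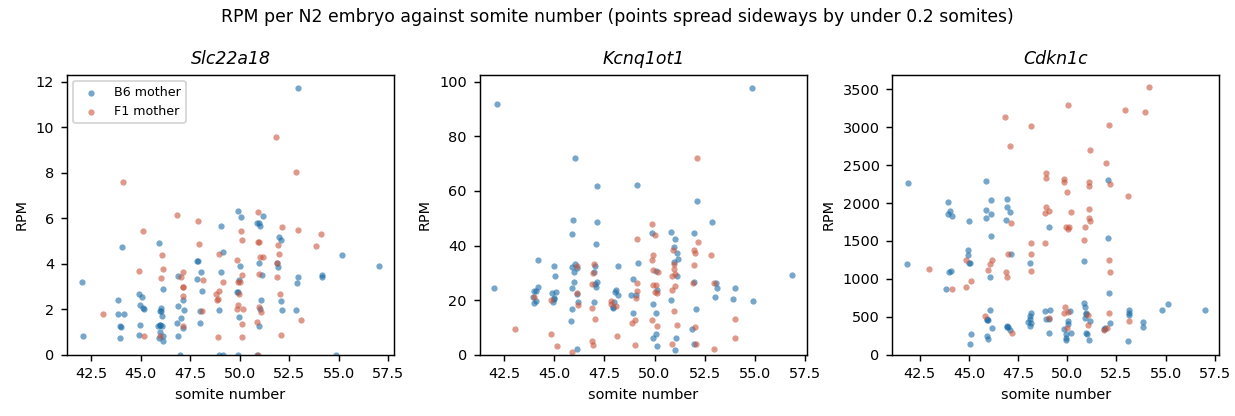
RPM of *Slc22a18*, *Kcnq1ot1* and *Cdkn1c* per N2 embryo (vertical axis) against somite number (horizontal axis), coloured by mother. Each point is an embryo. *Slc22a18* tends upwards from 42 to 57 somites, by a fitted log2 change of 0.12 per somite, while *Cdkn1c* spans 142 to 3528 RPM with a fitted slope of 0.022.

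The embryo's own genotype at the domain was compared separately for each mother, and so by the parent that gave the Cast copy. With a B6 mother the heterozygous embryos (48) carry Cast on the paternal chromosome, and with an F1 mother the heterozygous embryos (29) carry it on the maternal one. Each was set against the homozygous embryos of the same mothers (38 and 36), in a fit on 151 embryos with lane and mother as covariates. None of the 6 members was called in either contrast, against 7 of 14188 genes with B6 mothers (0.0493%) and 11 with F1 mothers (0.0775%), and 0 of 14188 genes differed between the contrasts (0%, with 544 at an unadjusted p under 0.05 and 1 called by DESeq2).

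Heterozygous embryos of B6 mothers had 4.01 RPM of *Kcnq1ot1* at the lowest, 24.6 at the median and 92 at the highest, and homozygous embryos 1.76, 24 and 97.9 RPM. The 2 genotypes thus spanned nearly the same range. For this paternally read RNA, Cast against B6 on the paternal chromosome gave 0.23 ± 0.15, a fold of 1.17 (95% interval 0.956 to 1.43). On the maternal chromosome, from which it was not read, the value was of like size, 0.21 ± 0.16, and the contrasts differed by -0.02 ± 0.22. *Cdkn1c* in F1 mothers had 348, 1657 and 3528 RPM in heterozygous and 265, 1496 and 3225 RPM in homozygous embryos. For this maternally read gene, Cast on the maternal chromosome gave 0.04 ± 0.13, a fold of 1.025 (0.855 to 1.23), and on the paternal chromosome -0.02 ± 0.13. Both intervals of *Cdkn1c* lay between a fold of 0.827 and 1.23. With B6 mothers its raw means were 979 and 672 RPM, and the log2 difference was 0.49 without lane as a covariate, in place of -0.02 with it. *Slc22a18* gave -0.19 ± 0.18 with the maternal and -0.10 ± 0.19 with the paternal chromosome Cast.

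*Kcnq1* showed the widest value. With F1 mothers the heterozygous embryos had 0 RPM at the lowest and median and 1.98 at the highest, and the homozygous embryos 0, 0.915 and 3.68 RPM. The ranges overlapped, and the log2 difference was -0.92 ± 0.32 (edgeR unadjusted p = 0.0050), which did not pass adjustment over all genes (adjusted p = 1.00). With B6 mothers it was -0.29 ± 0.28, and the difference between contrasts was -0.64 ± 0.42 (unadjusted p = 0.135). *Phlda2* stood at 0.40 ± 0.20 with F1 mothers, where heterozygous embryos had 1.90, 3.64 and 9.62 RPM at the lowest, median and highest and homozygous embryos 0, 2.59 and 6.32 RPM, and at 0.21 ± 0.20 with B6 mothers (adjusted p = 1.00 in both). *Ascl2* gave 0.22 ± 0.30 and 0.04 ± 0.27.

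**Figure D5:**
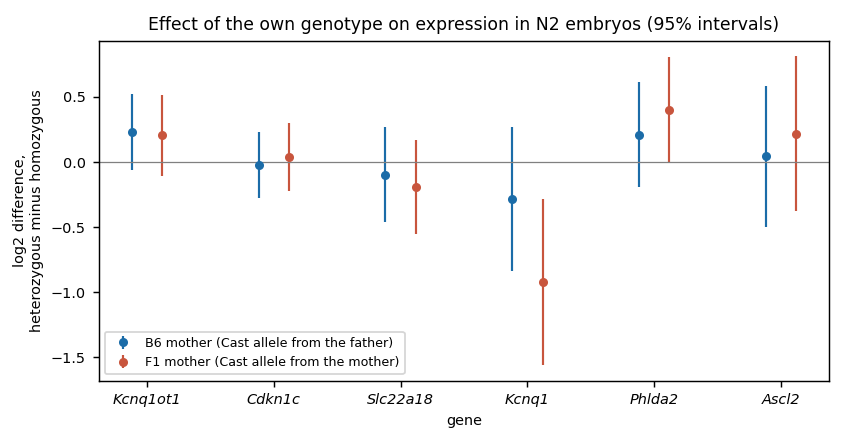
Log2 difference of heterozygous minus homozygous N2 embryos (vertical axis) for the 6 members, with B6 mothers (Cast allele from the father) and F1 mothers (Cast allele from the mother). Points are edgeR estimates and bars are 95% intervals. The bars of 5 members include 0 in both contrasts, and that of *Kcnq1* with F1 mothers runs from -1.56 to -0.28.

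Genes elsewhere that passed in these contrasts all lay on chromosome 7. Genes on the same chromosome can be inherited together with the domain, and their own genotype was not separated from that of the domain. The smallest p with B6 mothers belonged to *Chid1* (0.46), *Mgmt* (0.52), *Igf2as* (0.72), *Pddc1* (-0.70) and *Caly* (0.75), and with F1 mothers to *Mgmt* (0.68), *Pddc1* (-0.89), *Slx1b* (-0.63), *E430018J23Rik* (-0.70) and *Sct* (-0.50), each a log2 difference. Of 11 neighbours tested 1 was called, *Tssc4*, which fell in heterozygous embryos of F1 mothers by 0.34 ± 0.074 on the log2 scale (edgeR adjusted p = 0.015), against -0.05 ± 0.07 with B6 mothers, and the difference of -0.29 ± 0.10 did not pass (unadjusted p = 0.0048). In the contrast of both effects the smallest p belonged to *Igf2as*, an antisense RNA of *Igf2* (-0.76 ± 0.16, adjusted p = 0.092), followed by *Zbtb12*, *Bid*, *Gm3604* and *Gipc2* (adjusted p = 1.00 each). Counting without strand would not tell *Igf2as* from *Igf2*.

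By stage, 5 of 12 neighbours were called in CastxB6, where 31% of all genes were, 2 of 12 in B6xCast (15.7% of all genes) and 2 of 11 by somite number in N2 embryos (8.75%). *Trpm5* was higher in the older litter of both F1 crosses, by log2 differences of 1.89 ± 0.23 in B6xCast and 1.49 ± 0.25 in CastxB6. In N2 embryos *Trpm5* rose by 0.23 ± 0.030 per somite (edgeR adjusted p = 2.3e-09). *Dhcr7*, which encodes the last enzyme of cholesterol synthesis, was lower in the older litter of both F1 crosses (-0.40 ± 0.10 and -0.60 ± 0.10). The older CastxB6 litter also had more *Tssc4* (0.67 ± 0.13) and less *Cd81* (-0.36 ± 0.12) and *Th* (-0.70 ± 0.13), which encodes tyrosine hydroxylase. In N2 embryos *Nap1l4* fell by 0.033 per somite. Between crosses at the nearest stages 1 of 12 neighbours was called (13.1% of all genes). It was the tetraspanin gene *Tspan32*, at a higher level in B6xCast litter 5 (0.46 ± 0.13, edgeR adjusted p = 0.029). By mother 0 of 11 were called.

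Genes that act beside or against *Cdkn1c* in the cell cycle, and those that act in silencing, were counted in the same fits. By somite number, where 8.75% of all genes were called, 1 of the 5 other CDK inhibitors measured rose, *Cdkn1a*, which encodes p21 (0.073 ± 0.014 per somite, edgeR adjusted p = 8.1e-05). Of 8 G1 cyclins and kinases 2 fell, the D-type cyclins *Ccnd1* (-0.035 ± 0.0094) and *Ccnd2* (-0.045 ± 0.013), and of 10 genes of the silencing machinery 1 fell, the histone methyltransferase *Ehmt1* (-0.045 ± 0.015). The median slope of the 6 domain genes was 0.043 per somite and that of all genes tested -0.0044. In the older B6xCast litter, where 15.7% of all genes were called, 0 of 4 CDK inhibitors changed, *Ccnd1* (-0.49 ± 0.077) and *Ccnd2* (-0.41 ± 0.13) fell, and of the silencing genes *Ehmt2*, a histone methyltransferase (-0.43 ± 0.093), and *Hnrnpk*, an RNA binding protein (-0.79 ± 0.22), fell.

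In the older CastxB6 litter, where 31% of all genes were called, 3 of 4 CDK inhibitors were. *Cdkn1b*, which encodes p27 (0.90 ± 0.15), and *Cdkn1a* (0.30 ± 0.11) rose and *Cdkn3* fell (-0.60 ± 0.19). Of the G1 cyclins and kinases 1 of 8 rose, the E-type cyclin *Ccne2* (1.65 ± 0.29), and 3 fell, *Ccnd3* (-0.48 ± 0.11) and the kinases *Cdk4* (-0.58 ± 0.12) and *Cdk6* (-0.66 ± 0.20). Of 10 silencing genes 2 rose, the Polycomb ubiquitin ligases *Rnf2* (1.29 ± 0.16) and *Ring1* (0.43 ± 0.13), and 2 fell, *Ehmt1* (-0.49 ± 0.11) and the maintenance methyltransferase *Dnmt1* (-0.69 ± 0.15). Between crosses at the nearest stages, 13.1% of all genes were called. There B6xCast litter 5 had less *Cdkn1b* (-0.46 ± 0.14), *Cdk2* (-0.73 ± 0.18) and *Rnf2* (-0.52 ± 0.15) than CastxB6 litter 2. It had more *Ccnd3* (0.33 ± 0.10) and *Ehmt2* (0.35 ± 0.085). These are 1 of 4, 2 of 8 and 2 of 10 genes of the lists. By mother and by own genotype 0 genes of these lists were called.

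Likeness of levels was taken as Spearman's rho of log2(RPM + 1), centred by lane, over 154 N2 embryos and 9732 autosomal genes, and is a description, since all genes of an embryo share its library and depth. For *Kcnq1ot1* the highest values were those of *Phip* (0.61), *Rc3h2* (0.55) and *Slc16a6* (0.55), with a median over genes of 0.063. For *Cdkn1c* they were *Dctn4* (0.68), *Lsm14b* (0.68) and *Ttc3* (0.67), with a median of 0.15. Between members the values were 0.26 for *Kcnq1ot1* with *Cdkn1c*, 0.25 for *Phlda2* with *Slc22a18*, and -0.10 to 0.14 for the other 13 pairs. The genes named before were picked as the highest, so members cannot be ranked against them.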

How the data were processed

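3SEQ libraries of whole E11.5 embryos were analysed in 170 samples, 16 F1 and 154 N2. Per the labels and methods, the authors aligned trimmed reads (Bowtie2) against mm9, which is B6, and against a Cast version of it, discarded repetitive positions, and deposited raw read counts on RefSeq exons without normalization. The authors also deposited allele votes, which are estimated counts (expected counts) because each read's vote is split over its SNPs. They were rounded to whole numbers for binomial tests. Genotype codes come from the authors' hidden Markov model. The strand setting and the Bowtie2 version are not given in the sources used here. 14 columns of the N2 tables were not used.

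Labels gave each embryo's group, litter, lane and somite number. Counts were divided by the total on genes (RPM) and tested in edgeR 4.0.16 (R 4.3.3) by the quasi-likelihood test with TMM and Benjamini-Hochberg adjustment over all genes that averaged 0.5 RPM or more, and in DESeq2 1.42.0 as an alternative. Imprinting used binomial tests with Bonferroni adjustment at 0.01 and at least 20 votes per cross, with permutation tests over embryos (F1) or litters (N2, 100000 resamples) in Python 3.11.15 with scipy 1.17.1. Embryos with at least 5 votes are plotted, and correlations with somite number took embryos with at least 20. Intervals are at 95%, for votes by Clopper-Pearson, and cover counting error only. The scripts were tested on data with known changes. Labels name litters and embryos. The binomial p-values rest on votes pooled over embryos and cover counting error only. The p-values of the expression and permutation tests measure the spread between embryos or litters of these crosses. In F1 the units were embryos, although each cross came from 2 litters. Coordinates are GENCODE vM1 on mm9, in which *Kcnq1ot1* was not found, and promoters are RefSeq windows, held for 4 of the 6 members.

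All 6 members were named in every comparison. Of the neighbours and of the lists (CDK inhibitors, G1 cyclins and kinases, silencing machinery) counts and genes past a test were named, and of trophoblast, decidual and embryonic markers counts and summed levels, with the 5 smallest p of each genotype contrast and the 3 genes most like *Kcnq1ot1* and *Cdkn1c*. The result of a further list is not reported here. Members and lists were chosen with earlier results of these data known. Alternatives changed the normalization, filters, vote minimum, adjustment, unit, covariates and embryos included.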

Additional observations from a re-analysis of the deposited data

Results flagged for a closer look

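In 2 of the 39 groups of 4 to 10 embryos examined, 1 embryo stood farther from the others than Dixon's 95% critical value allows, and chance alone flags about 1 in 20 groups. In CastxB6 litter 2, *Cdkn1c* was at 2326 RPM in 1 of the 4 embryos, and the next embryo was at 768.5 RPM. That embryo decides the sign of the *Cdkn1c* difference between crosses at the nearest stages. Among the 8 CastxB6 embryos, *Phlda2* was lowest at 3.677 RPM in an embryo of litter 1, and the next was at 5.362 RPM. The same embryo had the highest sum of trophoblast markers among F1 libraries, 0.869 RPM, and their part in its *Phlda2* level was not tested.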

How the results depend on the processing

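Of the alternatives fixed for single members, 307 kept direction and side of the threshold, 14 newly passed, 2 no longer passed and 29 turned direction. None of the 29 passed the test in either setting, and the cause was not tested. The imprinting calls of *Kcnq1ot1*, *Cdkn1c* and *Slc22a18* held in every alternative that tested them. *Ascl2* passed in F1 with a quasi-binomial test over embryos, whose threshold was an adjusted p under 0.05 (0.048), and with Benjamini-Hochberg adjustment at 0.01 (0.0065), and in N2 embryos with the former (0.021). Neither quasi-binomial value lay under 0.01.

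With a minimum of 5 RPM, 0 members were called by cross, by CastxB6 stage and by somite number, since *Slc22a18* was no longer tested. Members called became 2 by cross with DESeq2 and with all 8 embryos of each cross, and 1 by B6xCast stage with total counts as library sizes. By mother they became 1 with embryos as units, with or without flowcell, and 2 with a Mann-Whitney test over embryos. By somite number they became 3 with DESeq2, 2 without a covariate and with Spearman's correlation, and 0 with litter as covariate or in F1 mothers only. Leaving out 1 embryo gave 1 to 2 members by cross, 0 to 0 by B6xCast stage and 1 to 3 by CastxB6 stage.

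Leaving out 1 embryo, the log2 difference by cross ran from -0.30 to 0.48 for *Cdkn1c*, -0.0086 to 0.20 for *Phlda2* and -0.13 to 0.12 for *Ascl2*. By B6xCast stage it ran from -0.086 to 0.33 for *Kcnq1* and -0.016 to 0.43 for *Phlda2*, and by CastxB6 stage from -0.81 to 0.24 for *Cdkn1c* and -0.14 to 0.069 for *Phlda2*. With all 8 embryos of each cross the difference was -0.24 for *Kcnq1* and 0.11 for *Cdkn1c*. *Phlda2* by CastxB6 stage was 0.099 with total counts, 0.033 from 5 RPM and 0.011 with no filter.

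*Phlda2* by mother was 0.072 over embryos, 0.081 with flowcell and 0.11 by the Mann-Whitney test. Without a lane covariate the slopes per somite were 0.018 for *Kcnq1*, -0.0084 for *Cdkn1c* and 0.018 for *Ascl2*, and Spearman's rho was 0.0098, -0.072 and 0.11. *Ascl2* was also at 0.0039 with total counts, 0.070 with litter as covariate and 0.036 in B6 mothers. For the own genotype without lane, B6 mothers gave 0.49 for *Cdkn1c* and -0.046 for *Ascl2*, F1 mothers -0.036 and -0.022, and the difference was -0.53 for *Cdkn1c* and 0.083 for *Kcnq1ot1*. The rank-sum test gave 0.016 for *Cdkn1c* and -0.067 for *Ascl2* with B6 mothers. *Kcnq1ot1* was -0.017 in F1 mothers with litter as covariate, and its difference 0.034 with total counts. Its rho of BAF with somite number in B6xF1 was -0.061 from 5 votes and -0.13 without the 2 embryos farthest in stage.

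Counts over all genes moved by more than 1.5 times for imprinting in N2 embryos (33 to 87, quasi-binomial), by cross (1856 to 3760 with all 8 embryos), by mother (0 to 1 with no filter, 5 with DESeq2, 2723 over embryos, 5856 with flowcell and 3522 by the Mann-Whitney test), by somite number (1242 to 2817 without a covariate, 2519 by Spearman, 655 and 112 in B6 and F1 mothers, 139 with litter), by own genotype (7 to 12 with DESeq2 in B6 mothers, 11 to 7 without lane in F1 mothers, 0 to 1 from 5 RPM or with DESeq2 for the difference), and for BAF with somite number (44 to 23, 24 and 21 in B6xF1 and 1 to 3 in F1xB6). Leaving out 1 embryo gave 904 to 2028 genes by cross, 947 to 2232 by B6xCast stage and 3080 to 4939 by CastxB6 stage. The rank-sum test gave no value for the difference of the genotype contrasts, and F1 correlations with 2 embryos left out could not be run. No paired analysis was possible because replicate numbers were given in accession order and pair no embryos. Depth limits *Kcnq1*, *Ascl2* and *Phlda2* in N2 embryos to few reads each.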
